A study of Mus musculus with 9 samples.

Results

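The genes described are 48 genes of the lysosome, among 23337 genes in the count table, and they were chosen by symbol: Gpnmb with 7 other membrane proteins, 10 proteases, 12 glycosidases, 5 sulfatases, 6 genes of lipid handling, 3 proton pump subunits, the 3 MiT/TFE transcription factors Tfeb, Tfe3 and Mitf, and the autophagy receptor Sqstm1. RNA was sequenced from immortalised Cebpb-ko MEFs, which are mouse embryonic fibroblasts of C57BL/6 x 129 background that lack functional C/EBPβ, after stable transfection with the empty vector (EV), with rat C/EBPβ-LAP or with rat C/EBPβ-LIP and selection with Zeocin. The Cebpb deletion, the vector and the selection were shared by all 3 groups, and each group held 3 libraries, 9 in all. LAP is the long, activating isoform of C/EBPβ and LIP is the short isoform that lacks the activation domains, and the study asked how each of them alone changes the cell. Whether the libraries of a group came from separate cultures or clones is not given in the sources used here, so p-values measure only the spread between these libraries. As these are bulk samples, fewer cells with a transcript and less of it per cell cannot be told apart.

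Lysosomes are acidic organelles in which proteases, glycosidases, sulfatases and lipid hydrolases break down material delivered by endocytosis and autophagy. The V-ATPase pumps protons into them, heavily glycosylated membrane proteins such as LAMP1 line their membrane, and TFEB, TFE3 and MITF, basic helix-loop-helix factors of the MiT/TFE family, activate many lysosomal genes through a palindromic motif with the core CACGTG. GPNMB is a glycoprotein of endolysosomal and surface membranes that is best known from macrophages, osteoclasts and melanocytes and from cells with stressed lysosomes.

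Total gene counts were 24839139 to 33522082 per library, and levels are given as CPM, the count of a gene relative to the TMM-scaled library total. The floor of 3 counts corresponded to 0.0895 to 0.121 CPM, which covers counting error only. Of the 48 members, 47 had at least 1 count and 44 had a mean of at least 20 counts in each comparison. Cathepsin S (Ctss), a protease of antigen-presenting cells, had 0 counts in every library. Reads on Cebpb itself numbered 684 to 1077 in every library and did not separate the groups, and since reads of a disrupted mouse transcript and of the rat construct may both count there, this checks no label. Fibroblast markers were abundant, with a summed level of 33339 to 38004 CPM in EV, 24581 to 41316 in LAP and 14527 to 28775 in LIP, nearly all of it Col1a1, Col1a2, Col3a1, Vim and Fn1. Pdgfra had 0.524 to 2.93 CPM, Pdgfrb 0.0969 to 1.73 and Lum at most 1.4, with 0 counts in the 3 LIP libraries. The macrophage markers Ptprc, Itgam and Tyrobp and the osteoclast marker Calcr were at 0 counts in all 9 libraries. Other markers of these lists were counted in every library. Among them were Cd14 with 55 to 150 counts, Csf1r with 21 to 76 and Mrc1 with 22 to 46 for macrophages. For osteoclasts Tnfrsf11a had 130 to 452 counts and Mmp9 15 to 357. The 11 macrophage markers in the table summed to 3.62 to 8.32 CPM. The 6 osteoclast markers summed to 4.84 to 25.3 CPM and the 5 melanocyte markers in the table to 2.29 to 4.52 CPM. The 5 epithelial markers summed to 563 to 1312 CPM, nearly all of it Krt19 and Krt14.

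The second LIP library stood apart for the lysosomal genes. The members took 0.466 to 0.513% of all counts in EV and 0.434 to 0.515% in LAP, but 0.414%, 0.288% and 0.443% in LIP libraries 1, 2 and 3. Relative to the EV mean, the median member was at −0.13, −0.86 and −0.15 on the log2 scale in these 3 libraries, whereas the median of all 11535 well-counted genes, by the same minimum mean, stayed between −0.04 and 0.01. LIP 2 was the lowest of the 3 LIP libraries for 37 of the 44 members (84.1%), compared with 37.7% of all genes. It also had the highest TMM factor, 1.10 against 0.949 to 1.02 in the others, and the fewest reads on Col1a1, Col1a2 and Col3a1. The part of these features in the results was not tested, and the main counts over roles and lists in LIP are given with and without LIP 2.

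**Figure D1:**
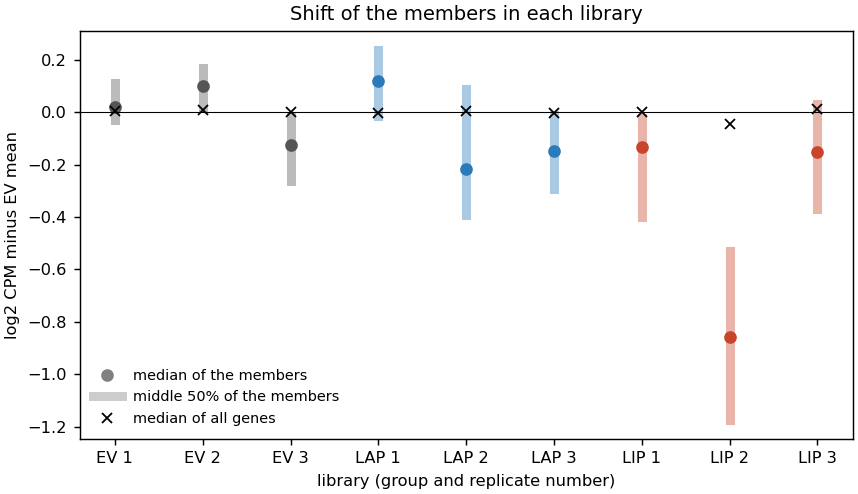
Shift of the lysosomal members in each library, as log2 CPM minus the mean of the 3 EV libraries. Points are the median of 44 members, bars span the middle 50% of them, and crosses are the median of all genes: LIP 2 lies lowest, with a median of −0.86, while the other 2 LIP libraries lie at −0.13 and −0.15.

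In LIP compared with EV, most lysosomal genes had lower transcript levels, but few differences passed the threshold after adjustment over all genes. After adjustment over all 18203 genes tested, 2 of the 47 members, Gpnmb and Fuca2, were lower at an adjusted p under 0.05 in edgeR's quasi-likelihood test, beside 0.33% of all genes, and 0 were higher, beside 0.0659% of all genes. At an unadjusted p under 0.05, 13 members were lower, beside a background of 6.75%, and 0 were higher, beside 4.23%. Without LIP 2, 9 members were lower at that level, beside 1024 of all 17955 genes tested. The log2 fold change was below 0 for 37 of 44 members, compared with 47.6% of all genes, and its median was −0.35, compared with 0.02 over all genes. Without LIP 2, 32 members were below 0 and the median was −0.17, beside 5467 of 11534 genes below 0 and a median of 0.01. The groups did not overlap for 17 of the 44 members, all lower in LIP, whereas 11.1% of all genes were lower without overlap. Without LIP 2 the number was again 17, beside 13.9% of all genes. A two-sided exact permutation test over 3 against 3 libraries cannot give a p below 0.1, which these 17 members reach.

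**Figure D2:**
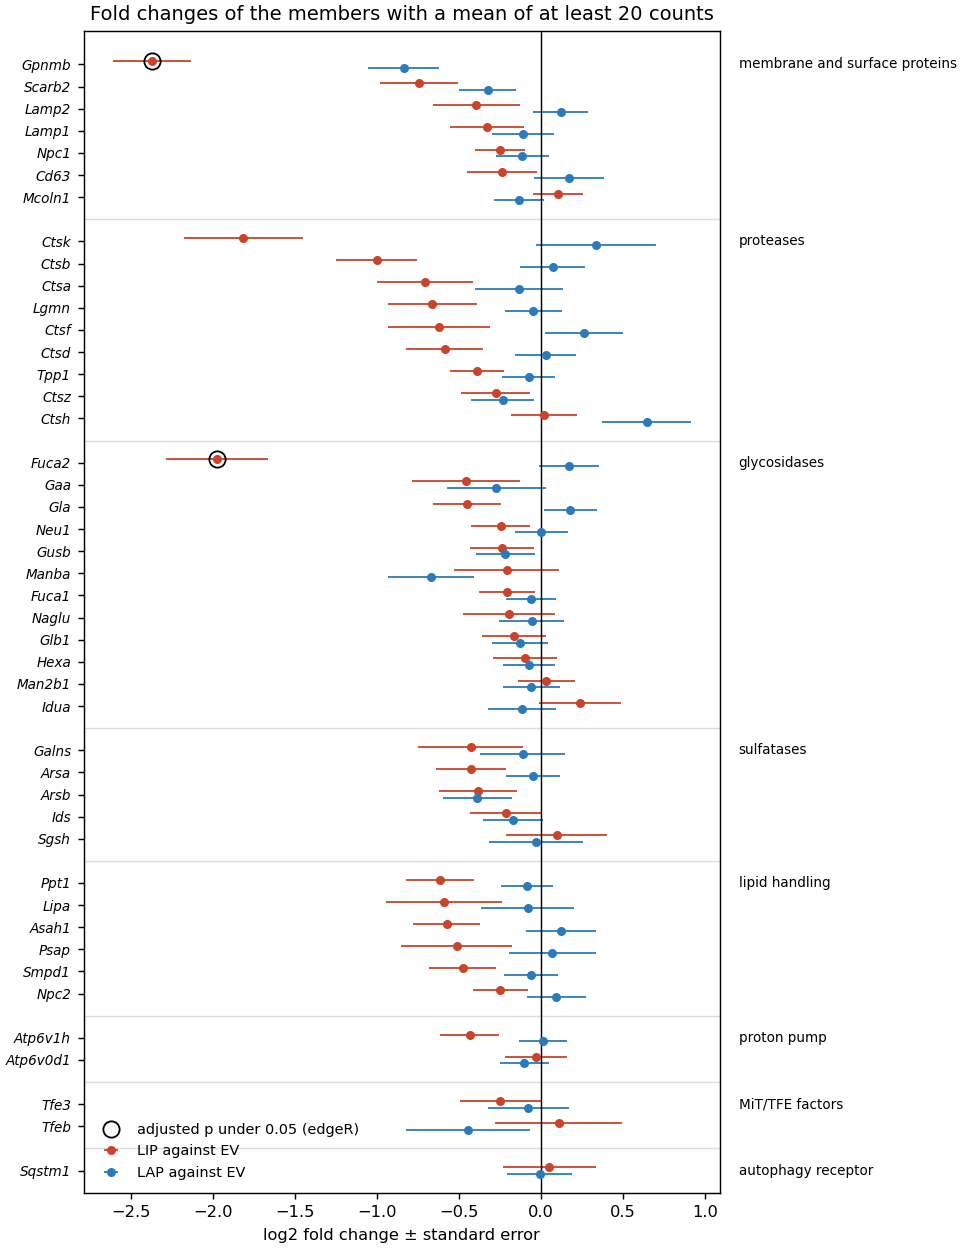
Log2 fold changes with standard errors for the 44 members with a mean of at least 20 counts, grouped by role, in LIP against EV (red) and LAP against EV (blue). Circles mark Gpnmb and Fuca2, which passed an adjusted p of 0.05 in LIP against EV, at −2.37 and −1.97.

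Gpnmb, the surface and endolysosomal glycoprotein, had 23.0, 28.2 and 19.0 CPM in EV, 16.6, 13.4 and 9.54 in LAP and 5.18, 4.98 and 3.42 in LIP. The 3 groups were fully separated, with EV highest, LAP between and LIP lowest. Gpnmb fell 5.17-fold in LIP against EV (log2 fold change −2.37 ± 0.24 SE, n = 3, adjusted p = 0.00252, edgeR), which is the second smallest p of all genes tested. This call held when any of the 6 libraries was left out, with an adjusted p of 0.00014 to 0.0266. It was lost with a filter of at least 10 counts in every library (adjusted p = 0.0787). In LAP against EV Gpnmb had a log2 fold change of −0.84 ± 0.22 SE with an adjusted p of 0.611, which became 0.0209 with the replicate number as a block. In LIP against LAP it fell by 1.53 ± 0.30 SE on the log2 scale (adjusted p = 0.0185), but the adjusted p was 0.0676, 0.111 and 0.054 without LAP 1, LAP 2 and LIP 1. That call was also lost with the non-legacy form of the edgeR test (adjusted p = 0.0796), filterByExpr (0.155) and at least 10 counts in every library (0.213), while the replicate block gave 1.42e-07.

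Gpnmb lies on chromosome 6, at chr6:49036518-49058182 of GRCm38.p6. The 250 bases before its RefSeq start, chr6:49036268-49036517 on the forward strand, are shown because it is the member with the largest difference and its window holds neither CACGTG nor TTGCNNAA, the loose form of the C/EBP motif.
Gpnmb: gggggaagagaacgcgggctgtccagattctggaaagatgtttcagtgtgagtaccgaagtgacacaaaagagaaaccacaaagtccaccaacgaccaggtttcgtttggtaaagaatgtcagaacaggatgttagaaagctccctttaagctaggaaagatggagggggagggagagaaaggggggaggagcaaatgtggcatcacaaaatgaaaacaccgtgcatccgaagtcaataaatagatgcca

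**Figure D3:**
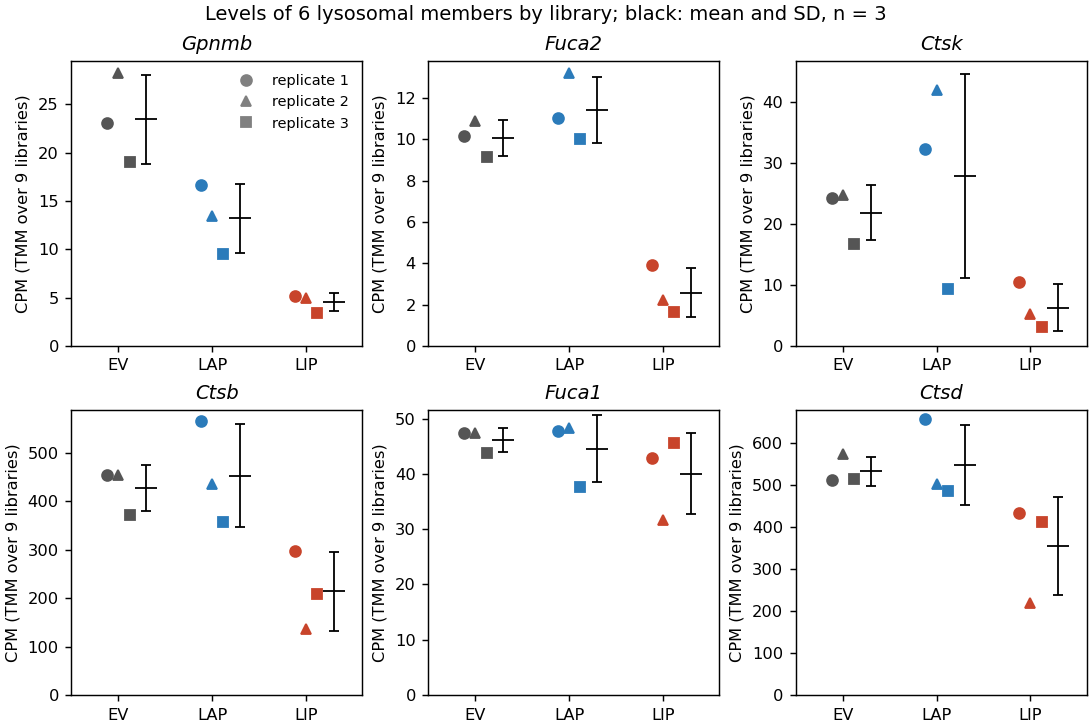
CPM of 6 members in each library of EV, LAP and LIP (symbols: replicate numbers), with mean and SD of 3 libraries in black. Gpnmb, Fuca2, Ctsk and Ctsb lie lower in all 3 LIP libraries than in all 3 EV libraries, Fuca1 overlaps between the groups, and for Ctsd LIP 2 lies lowest at 220 CPM.

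Over the 9 libraries, the gene whose log2 CPM was most like that of Gpnmb among 11534 others was Lamb3, a laminin chain, with a Pearson r of 0.979. It was followed by Slc2a13 (0.966), Sesn1 (0.959), Naaa, a lysosomal amidase (0.959), and Pdgfa (0.958). Lamb3 had 1.52 to 2.95 CPM in EV, 0.814 to 2.22 in LAP and 0.194 to 0.449 in LIP. Among the members, Fuca2 (0.882), Ctsk (0.843) and Ctsb (0.815) were nearest to Gpnmb. The libraries fall into 3 groups, so these values describe a shared order of the groups as much as of single libraries.

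Of the other membrane proteins, Scarb2, the receptor that carries glucocerebrosidase to the lysosome, had 156, 137 and 117 CPM in EV, 129, 95.5 and 105 in LAP and 77.8, 53.0 and 114 in LIP. The LIP libraries all lay below the EV libraries, by a narrow margin for LIP 3, and the log2 fold change was −0.74 ± 0.24 SE (adjusted p = 0.241, edgeR). Lamp1, the main structural membrane protein, had 897, 1007 and 849 CPM in EV and 828, 493 and 874 in LIP, so that only LIP 2 lay clearly below EV. Lamp2, Cd63 and Npc1, the cholesterol exporter, had log2 fold changes of −0.39, −0.24 and −0.25, none with an unadjusted p under 0.05. Mcoln1, the calcium channel of the lysosomal membrane, was the highest of the 7 well-counted members of the group at 0.10 ± 0.15 SE. Cln3, a membrane protein mutated in Batten disease, was barely counted, with 0.373 to 0.527 CPM in EV and 0.291 to 0.983 in LIP, and its estimate of 0.64 ± 0.48 SE rests on a mean of 17.3 counts.

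The proteases had the lowest median of the larger groups, −0.62, with 8 of 9 counted members below 0, beside 47.6% of all genes. At an unadjusted p under 0.05, 6 were lower, beside 6.75% of all genes, but 0 of them passed the adjusted threshold against EV. Without LIP 2, 8 of 9 were below 0, beside 5467 of 11534 genes, and the median was −0.35. At the unadjusted level 4 were then lower, beside 1024 of all 17955 genes tested. Cathepsin K (Ctsk), the collagen-degrading protease of osteoclasts that fibroblasts also make, had 24.2, 24.7 and 16.7 CPM in EV, 32.3, 42.0 and 9.40 in LAP and 10.5, 5.18 and 3.04 in LIP. All LIP libraries lay below EV, but LAP 3 lay below LIP 1, so LAP and LIP overlapped. The log2 fold change was −1.81 ± 0.36 SE against EV (adjusted p = 0.0586, edgeR) and −2.13 ± 0.44 SE against LAP (adjusted p = 0.0255), where Ctsk passed. Against EV it also passed by DESeq2 (adjusted p = 0.000863), by edgeR's exact test (0.00419) and therefore by both. With the replicate block its adjusted p against EV was 0.000414 (edgeR), but the check of the numbers did not pair LIP and EV. Against LAP the call was lost without LAP 2 (adjusted p = 0.244) and without LIP 2 (0.072), with the robust (0.517) and non-legacy (0.152) forms of the edgeR test, with filterByExpr (0.229) and with at least 10 counts in every library (0.289), while the replicate block gave 1.14e-12.

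Ctsk lies at chr3:95499210-95509387 of GRCm38.p6, directly before Ctss at chr3:95526786-95556405, the member without counts. The 250 bases before its start, chr3:95498960-95499209 on the forward strand, are shown because Ctsk is the strongly lowered member whose window does hold a match to TTGCNNAA. The match is in capitals, reads on the reverse strand and begins 76 bases before the start; a further match lies after the start.
Ctsk: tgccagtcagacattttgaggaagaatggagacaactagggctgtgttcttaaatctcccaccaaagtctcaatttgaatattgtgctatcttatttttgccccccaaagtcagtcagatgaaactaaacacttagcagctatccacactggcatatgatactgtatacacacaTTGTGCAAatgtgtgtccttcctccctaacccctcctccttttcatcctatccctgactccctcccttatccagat

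Cathepsin B (Ctsb), a broad cysteine protease and among the most abundant members, had 456, 456 and 372 CPM in EV, 567, 435 and 357 in LAP and 297, 136 and 208 in LIP. LIP lay below both other groups without overlap. The log2 fold change was −1.0 ± 0.25 SE against EV (adjusted p = 0.112, edgeR) and −1.07 ± 0.29 SE against LAP (adjusted p = 0.0949, or 1.83e-06 with a replicate block). Against EV Ctsb passed by DESeq2 (adjusted p = 0.0233) and by edgeR's exact test (0.0254), and so by both. It also passed there with the replicate block (0.0161, edgeR), although the check of the numbers did not pair LIP and EV. Against LAP it passed by DESeq2 (0.0435). Cathepsin D (Ctsd), the main aspartic protease, had 510, 572 and 514 CPM in EV, 655, 500 and 485 in LAP and 432, 220 and 411 in LIP. All LIP libraries were lower than the rest, LIP 2 by far the most, and the log2 fold change against EV was −0.59 ± 0.23 SE (adjusted p = 0.38).

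Legumain (Lgmn), which processes other lysosomal proteases, had 92.2, 80.4 and 76.8 CPM in EV, 102, 70.9 and 70.5 in LAP and 70.0, 27.1 and 60.8 in LIP. LIP was separated from EV but LIP 1 was level with the 2 lower LAP libraries, and the log2 fold change against EV was −0.66 ± 0.27 SE (adjusted p = 0.395, edgeR). Cathepsin A (Ctsa), which protects β-galactosidase and neuraminidase, had 6.25, 7.64 and 5.27 CPM in EV, 8.42, 5.14 and 3.96 in LAP and 4.69, 2.42 and 4.65 in LIP. Its groups EV and LIP did not overlap (−0.70 ± 0.29 SE, adjusted p = 0.401). For Tpp1, the tripeptidyl peptidase, the CPM were 126, 137 and 129 in EV, 148, 108 and 119 in LAP and 103, 81.1 and 115 in LIP. LIP again lay below EV, with a log2 fold change of −0.39 ± 0.16 SE (adjusted p = 0.405).

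Cathepsin F (Ctsf) had 9.11, 6.49 and 6.03 CPM in EV, 11.3, 7.76 and 7.07 in LAP and 4.53, 2.85 and 6.69 in LIP. It was separated between LIP and LAP but not between LIP and EV, with log2 fold changes of −0.88 ± 0.33 SE and −0.62 ± 0.31 SE. Cathepsin H (Ctsh), an aminopeptidase, was the exception among the proteases, with 24.6, 40.6 and 31.0 CPM in EV, 39.1, 78.8 and 34.3 in LAP and 37.3, 31.8 and 28.5 in LIP. LIP and EV overlapped entirely (0.02 ± 0.20 SE), and the estimate of 0.65 ± 0.27 SE in LAP against EV (adjusted p = 0.918, edgeR) was set largely by LAP 2, without which it was 0.20. Ctsz, a carboxypeptidase, had a log2 fold change of −0.28 ± 0.21 SE in LIP against EV.

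Of the 12 glycosidases, 10 lay below 0 in LIP against EV with a median of −0.21, beside 47.6% of all genes. Without LIP 2 only 6 did, with a median of −0.03, beside 5467 of 11534 genes. In LIP against LAP 9 lay below 0 with a median of −0.08, beside 49% of all genes. Without LIP 2 only 3 did, with a median of 0.12, beside 5836 of 11505 genes. Fuca2 alone passed the threshold without a replicate block, and Gla was added by the block in LIP against LAP. Fuca2, a secreted and lysosomal α-L-fucosidase, had 10.1, 10.9 and 9.14 CPM in EV, 11.04, 13.2 and 10.02 in LAP and 3.92, 2.20 and 1.61 in LIP. EV and LAP overlapped, and all 3 LIP libraries lay far below both. Fuca2 fell 3.92-fold against EV (log2 fold change −1.97 ± 0.31 SE, adjusted p = 0.0178, edgeR) and 4.38-fold against LAP (−2.13 ± 0.33 SE, adjusted p = 0.00505), with 0.17 ± 0.18 SE between LAP and EV. The call against EV was lost without EV 2 (adjusted p = 0.101) or LIP 2 (0.0779) and with the non-legacy form of the edgeR test (0.052), filterByExpr (0.129) or at least 10 counts in every library (0.156). The call against LAP was lost without LAP 2 (adjusted p = 0.0893, edgeR) and with the same filters (0.127 and 0.213), while the replicate block gave 1.42e-11.

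Its paralogue Fuca1, the main lysosomal α-L-fucosidase, had 47.3, 47.3 and 43.7 CPM in EV, 47.7, 48.4 and 37.7 in LAP and 42.9, 31.7 and 45.5 in LIP. Its groups overlapped, and the log2 fold change in LIP against EV was −0.20 ± 0.17 SE (adjusted p = 0.706, edgeR). Whether the changes of the 2 fucosidases differ was not tested. Fuca2 lies at chr10:13500570-13519035 and Fuca1 at chr4:135920726-135940300 of GRCm38.p6.

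Gla, the α-galactosidase A of Fabry disease, had 19.1, 20.8 and 21.0 CPM in EV, 21.6, 26.8 and 21.2 in LAP and 17.8, 10.9 and 15.9 in LIP. The 3 groups did not overlap, with LAP highest by a small margin, and the log2 fold changes were −0.45 ± 0.21 SE in LIP against EV and −0.62 ± 0.25 SE in LIP against LAP (adjusted p = 0.458 and 0.384, edgeR). With the replicate block, which the check of the numbers allows for LIP against LAP, Gla passed there (adjusted p = 0.0312). Manba, the β-mannosidase, had 29.2, 32.3 and 14.1 CPM in EV, 19.2, 14.7 and 13.9 in LAP and 22.6, 13.2 and 29.6 in LIP. Within EV it spread more than 2-fold, and its estimate in LAP against EV was −0.67 ± 0.26 SE (adjusted p = 0.918, edgeR). Idua, which removes iduronic acid, had 7.43, 5.98 and 8.76 CPM in EV, 7.71, 6.83 and 6.10 in LAP and 6.74, 11.2 and 8.24 in LIP, and was the highest of the group in LIP against EV with overlapping libraries (0.24 ± 0.25 SE). The remaining Hexa, Gaa, Glb1, Gusb, Man2b1, Naglu and Neu1 ranged from −0.46 for Gaa to 0.03 for Man2b1, with 0 of them at an unadjusted p under 0.05.

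For the 5 sulfatases the median log2 fold change in LIP against EV was −0.38, with 4 below 0, beside 47.6% of all genes. At an unadjusted p under 0.05, 0 were lower and 0 higher, beside 6.75% and 4.23%. Without LIP 2 the median was −0.15 with 4 below 0, beside 5467 of 11534 genes. Galns, which acts on keratan sulfate, had 3.42, 3.54 and 2.72 CPM in EV, 3.70, 2.12 and 3.18 in LAP and 3.55, 2.06 and 1.61 in LIP. It was the lowest of the group at −0.43 ± 0.32 SE, and its groups overlapped. Sgsh, which acts on heparan sulfate, had 19.0, 15.1 and 8.47 CPM in EV, 19.3, 10.3 and 12.2 in LAP and 17.7, 9.53 and 18.2 in LIP, with more spread inside each group than between them (0.10 ± 0.31 SE). Arsa, Arsb and Ids had log2 fold changes of −0.42, −0.38 and −0.21.

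All 6 genes of lipid handling had log2 fold changes below 0 in LIP against EV, beside 47.6% of all genes. They ranged from −0.61 to −0.25 with a median of −0.54. At an unadjusted p under 0.05, 3 were lower, beside 6.75% of all genes. Without LIP 2 all 6 were below 0, beside 5467 of 11534 genes, with a median of −0.33. At that level 2 were then lower, beside 1024 of all 17955 genes tested. Ppt1, a palmitoyl-protein thioesterase, had 83.9, 95.0 and 78.5 CPM in EV, 80.0, 93.4 and 71.5 in LAP and 65.1, 37.6 and 65.5 in LIP. LIP lay below both other groups without overlap (−0.61 ± 0.21 SE against EV, adjusted p = 0.274, edgeR). Asah1, the acid ceramidase, had 255, 295 and 207 CPM in EV, 302, 340 and 192 in LAP and 206, 126 and 177 in LIP. LIP 1 lay just below EV 3, and the log2 fold change was −0.57 ± 0.20 SE (adjusted p = 0.31).

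Smpd1, the acid sphingomyelinase, had 44.5, 45.2 and 39.1 CPM in EV, 47.0, 35.0 and 42.4 in LAP and 31.7, 21.8 and 39.1 in LIP. EV 3 and LIP 3 met at the same level, and the log2 fold change was −0.48 ± 0.21 SE (adjusted p = 0.421, edgeR). Npc2, the soluble cholesterol carrier, had 253, 279 and 266 CPM in EV, 274, 357 and 230 in LAP and 248, 184 and 241 in LIP, separated from EV by a narrow margin (−0.25 ± 0.17 SE). Psap, the precursor of the saposins, and Lipa, the acid lipase, had log2 fold changes of −0.51 and −0.59 from means of 58.7 and 37.0 counts. Counts of Psap, Lipa and Gaa were low beside those of most members, and whether reads of genes with several transcripts were left out in counting was not tested.

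Of the 3 proton pump genes, Atp6v1h, a regulatory subunit of the cytosolic part, had 83.7, 89.0 and 87.1 CPM in EV, 82.4, 96.2 and 85.7 in LAP and 73.6, 47.4 and 71.5 in LIP. LIP lay below EV and LAP without overlap, with a log2 fold change against EV of −0.43 ± 0.18 SE (adjusted p = 0.401, edgeR). Atp6v0d1, the widely expressed d subunit of the membrane part, had 81.6, 83.4 and 95.2 CPM in EV, 80.0, 76.4 and 87.9 in LAP and 79.9, 65.1 and 110 in LIP, with all groups overlapping (−0.03 ± 0.19 SE). Its osteoclast form Atp6v0d2 had 0 to 2 counts in every library, under the floor, so no fold is given. The autophagy receptor Sqstm1 had 264, 296 and 396 CPM in EV and 286, 204 and 501 in LIP, an overlap of the whole EV range (0.05 ± 0.28 SE).

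The MiT/TFE factors were the least counted group. Tfeb had 1.15, 0.590 and 0.937 CPM in EV, 0.709, 0.395 and 0.888 in LAP and 0.816, 0.721 and 1.36 in LIP. Tfe3 had 3.42, 3.39 and 3.60 CPM in EV, 3.45, 2.37 and 4.11 in LAP and 3.27, 2.72 and 2.81 in LIP. Tfeb overlapped between all groups, while the 3 LIP libraries of Tfe3 lay just below EV, and the log2 fold changes in LIP against EV were 0.11 ± 0.39 SE and −0.25 ± 0.25 SE (adjusted p = 0.943 and 0.706, edgeR). Mitf had 0 to 5 counts in every library, and no fold is given for it. Tfe3 has 6 curated RefSeq transcripts, and Tfeb, Mitf and the membrane gene Cln3 have 3 each. Whether reads of such genes were left out in counting was not tested, so low counts here need not mean low transcript levels. The MiT/TFE proteins, which are controlled mainly by location, were not measured here.

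Promoters were read from RefSeq on GRCm38.p6, as 300 bases from 250 before to 50 after each start, and 41 of the 48 members had an entry, with 50 windows in all. The MiT/TFE core CACGTG, which is its own reverse complement, was found in windows of 14 members, or 28.0% of the 50 windows compared with 7.15% of all 32851 windows. The longer TCACGTG, which lies within the same matches, was found for 13 members on either strand (26.0% of windows, 3.77% of all) and the palindrome TCACGTGA for 6, namely Atp6v0d1, Cln3, Ctsa, Ctsd, Gla and Mcoln1 (12%, 0.974% of all). The C/EBP palindrome TTGCGCAA was found for Ids only (2.0%, 0.183% of all), and its loose form TTGCNNAA, searched on both strands, for 8 members (18.0%, 10.8% of all). These matches describe the sequence and are not binding sites.

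Lamp1, the most highly expressed member per length, held the most matches, 4 copies of CACGTG within the 100 bases before its start, chr8:13159061-13159160 on the forward strand. Single matches with 5 bases on either side are shown for 4 further members to compare their flanks, with CACGTG in capitals throughout. They are read on the gene's own strand, which is the reverse strand for Ctsd and Gla and the forward strand for Mcoln1 and Ctsf, at chr7:142388062-142388077 and chr7:142387915-142387930 for Ctsd, chrX:134601222-134601237 and chrX:134601189-134601204 for Gla, chr8:3500443-3500458 and chr8:3500469-3500484 for Mcoln1 and chr19:4855081-4855096 for Ctsf.
Lamp1: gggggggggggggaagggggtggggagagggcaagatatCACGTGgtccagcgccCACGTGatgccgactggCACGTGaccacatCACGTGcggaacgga
Ctsd, 245 bases before the start: tccccCACGTGacctg
Ctsd, 98 bases before the start: cgtctCACGTGacccg
Gla, 227 bases before the start: ttgatCACGTGagcat
Gla, 194 bases before the start: tcggtCACGTGagcaa
Mcoln1, 71 bases before the start: cttgtCACGTGttcag
Mcoln1, 45 bases before the start: ccgctCACGTGaccgc
Ctsf, 79 bases before the start: tggtcCACGTGcctcg

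Fold changes of members with and without the motif covered overlapping ranges. In LIP against EV the 13 well-counted members with CACGTG had a median of −0.42, within −0.70 to 0.10, and 11 lay below 0. The 25 without it had a median of −0.25, within −2.37 to 0.24, and 21 lay below 0. Over all genes 47.6% lay below 0. Gpnmb, Fuca2 and Ctsk, which had the largest differences, belong to those without CACGTG in the window, and Mcoln1, with 2 copies, was among the 7 members above 0.

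Per kilobase of exon, the highest levels in EV were those of Lamp1 with 343 CPM, Ctsd with 226, Ctsz with 117, Sqstm1 with 94.9 and Hexa with 88.8. On the same scale Gpnmb stood at 3.60 in EV, 2.03 in LAP and 0.695 in LIP, rank 33 of 48 in EV, and Fuca2 at 1.63, 1.85 and 0.418. Tfe3 and Tfeb had 0.375 and 0.158 in EV, with the limit on their counting given above. That limit holds for every member with more than 1 curated transcript, among them Fuca2 with 2. Exon length is the union of all annotated exons of a gene, so levels per kilobase are lower limits for genes with unused exons.

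**Figure D4:**
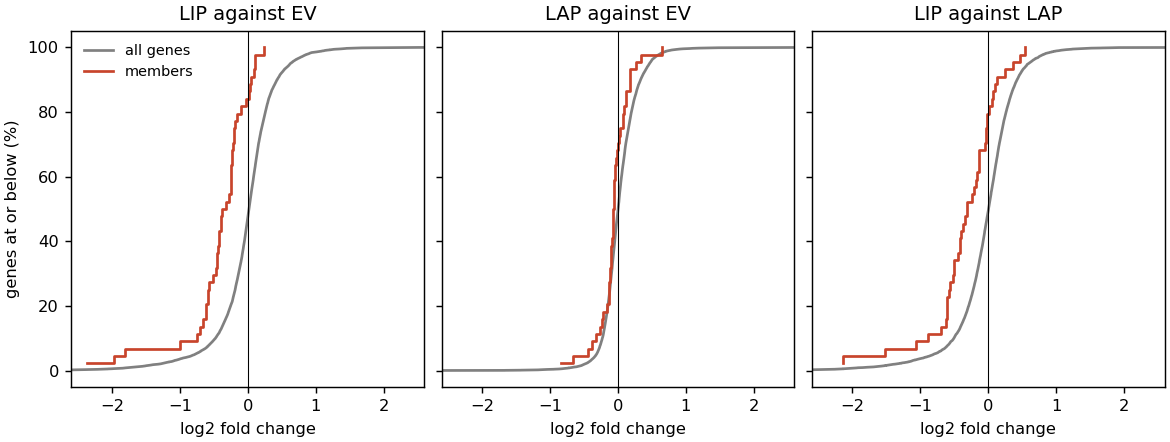
Cumulative share of genes at or below each log2 fold change, for 44 lysosomal members (red) and all genes that meet the same minimum mean count (grey), in the 3 comparisons. The median of the members lies at −0.35 in LIP against EV, −0.07 in LAP against EV and −0.31 in LIP against LAP, beside 0.02, 0.00 and 0.01 for all genes.

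In LAP compared with EV, 0 of the 47 members passed an adjusted p of 0.05 in edgeR, beside 0.0606% of all 18156 genes tested. At an unadjusted p under 0.05, Gpnmb and Manba were lower, 2 members beside a background of 1.34%, and Ctsh was higher, 1 member beside 1.93%. DESeq2 and the edgeR exact test also gave 0 members. The log2 fold change was below 0 for 30 of 44 members, compared with 49.6% of all genes, and its median was −0.07, beside 0.00 over all genes. With replicate number as a block, 1 member, Gpnmb, was lower at an adjusted p under 0.05, beside 0.165% of all genes, and 0 were higher, beside 0.132%. Both comparisons with EV share the EV libraries, so their values are given side by side and not compared. Ctsk, Ctsb and Fuca2, among the lowest members in LIP against EV with −1.81, −1.0 and −1.97, had 0.34, 0.07 and 0.17 in LAP against EV.

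In LIP compared with LAP, 3 of the 47 members, Fuca2, Ctsk and Gpnmb, were lower at an adjusted p under 0.05, beside 0.837% of all 18166 genes, and 0 were higher, beside 0.209%. At an unadjusted p under 0.05, 11 members were lower, beside 5.98%, and 0 were higher, beside 3.3%. Without LIP 2, 4 members were lower and 1 higher, beside 920 and 435 of all 17896 genes tested. The log2 fold change was below 0 for 35 of 44 members, compared with 49% of all genes, with a median of −0.31 beside 0.01. Without LIP 2 these became 26 members and −0.18, beside 5836 of 11505 genes below 0 and a median of −0.01. The groups did not overlap for 9 members, all lower in LIP, beside 7.41% of all genes, and without LIP 2 for 10, 9 of them lower, beside 10.9% of all genes lower. Without LAP 2, 0 members and 7 genes in all passed. With replicate number as a block, 10 members were lower, namely Asah1, Ctsb, Ctsd, Ctsf, Ctsk, Fuca2, Gla, Gpnmb, Lgmn and Ppt1, beside 4.79% of all genes, and 0 were higher, beside 1.72%. Of those not given above, the adjusted p with the block was 0.011 for Ctsd, 0.00699 for Ctsf, 0.00677 for Lgmn, 0.00958 for Asah1 and 0.0473 for Ppt1 (edgeR). All 9 counted proteases were below 0 in this comparison, as were the 6 genes of lipid handling, and without LIP 2 these were 8 and 6. For the 12 glycosidases the numbers were 9 and, without LIP 2, 3, and for the 5 sulfatases 3 and 2.

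Further genes of the pathway were taken from 5 lists that hold no member, and in LIP against EV 0 of their genes passed the adjusted threshold in edgeR. Of 21 other lysosomal hydrolases with a mean of at least 20 counts, 19 lay below 0, compared with 47.6% of all genes, with a median of −0.27. Of the 25 tested, 7 were lower at an unadjusted p under 0.05, beside 6.75% of all genes, and 0 higher, beside 4.23%. Without LIP 2, 16 lay below 0 with a median of −0.15 and 3 were lower at that level, beside 1024 of all 17955 genes. The smallest p there was that of Ctsc, a cathepsin that activates serine proteases of immune cells, with 33, 45 and 6 counts in EV and 4, 0 and 0 in LIP (adjusted p = 0.109). Among 17 other lysosomal membrane proteins 9 lay below 0 with a median of −0.02, and Igf2r, the mannose 6-phosphate receptor that delivers hydrolases, had the smallest p (−0.66 ± 0.20 SE, adjusted p = 0.225).

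Of 16 other V-ATPase genes 11 lay below 0 with a median of −0.10, led by Atp6ap2, an accessory subunit (−0.68 ± 0.21 SE, adjusted p = 0.232, edgeR). Of 16 nutrient-sensing genes 7 lay below 0 with a median of 0.02, and Rragd, a GTPase that recruits mTORC1 to the lysosome, had the smallest p on a mean of 13.8 counts (adjusted p = 0.285). Of 17 autophagy genes 9 lay below 0 with a median of −0.04, led by Gabarapl1 (−0.44 ± 0.19 SE, adjusted p = 0.414). The share of all genes below 0 was 47.6%, with a median of 0.02. Without LIP 2 the numbers below 0 were 10 of the 17 membrane proteins, 10 of the 16 V-ATPase genes, 10 of the 16 nutrient-sensing genes and 8 of the 17 autophagy genes. Over all genes 5467 of 11534 were then below 0. In LIP against LAP, 1 gene of the 5 lists passed, Tfec, the fourth MiT/TFE factor, at very low counts of 24, 14 and 3 in LAP and 1 in each LIP library (adjusted p = 0.0471, edgeR). Without LIP 2 Tfec did not pass, while 1 of the other V-ATPase genes did, beside 94 of all 17896 genes tested. That gene is not named, as the naming rule covers the main test only.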

How the data were processed

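The authors made libraries with the TruSeq RNA v2 kit, sequenced single reads of 50 bases, extracted them with bcl2fastq 1.8.3, aligned them with TopHat 1.4.1 to the mouse genome (mm10, RefSeq annotation) and deposited raw counts per gene from HTSeq 0.5.4. The strand setting is not given in the sources used here, so reads of overlapping antisense genes cannot be told apart. Depth was 24839139 to 33522082 counts per library, and 0 columns were left unused.

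Each comparison used its 6 libraries and all genes with at least 1 count. Counts were scaled by TMM and tested two-sided with edgeR 4.0.16 in R 4.3.3 (quasi-likelihood, no covariates), with Benjamini-Hochberg adjustment over all genes and a threshold of 0.05. Standard errors were taken as the size of the log2 fold change over √F. The test was also run on simulated counts with known changes. These held no outlying library and no pairing of replicates, so they do not check the calls made here. Medians and counts below 0 used members with a mean of at least 20 counts. Positions and promoters are from RefSeq on GRCm38.p6, exon lengths from GENCODE. Figures used matplotlib 3.10.9 in Python 3.11.15.

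The members, gene lists and rules were chosen with earlier results of these data known. Described in every library were Gpnmb, the MiT/TFE factors, members with an unadjusted p under 0.05 in any comparison, and the highest and lowest member of each role in LIP against EV. For each list outside the members, the gene with the smallest p in LIP against EV and every gene past the threshold in the main test were named. Lamp1, Sqstm1 and Fuca1 are described beyond this rule, chosen after their values were seen.

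Replicate numbers come from the labels. Deviations from the group means correlated within each number between LAP and EV (r 0.21 to 0.524) and between LIP and LAP (0.413 to 0.558). Between LIP and EV they did not do so for every number (−0.121 to 0.29). The number was taken as a pairing where r was above 0.1 for all numbers, a limit applied to these same libraries. Whether equal numbers mark a shared batch is not given in the sources used here and was not tested. Results with the block therefore carry a limit in every comparison and stand beside the main test, which has no block. As alternatives, the test was replaced by DESeq2 1.42.0, by edgeR's exact test, by both jointly and by the robust and non-legacy quasi-likelihood forms. Scaling was changed to DESeq2 size factors or total counts and the filter to filterByExpr or a minimum of 10 counts per library. A joint model of 9 libraries, the replicate block, each library left out and thresholds of 0.01 and 0.1 completed the list. Counts of members and of genes in the other lists without LIP 2 (below 0, at an unadjusted p under 0.05, without overlap) were added after seeing the data.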

Additional observations from a re-analysis of the deposited data

How the results depend on the processing

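The number of lysosomal genes past the threshold depended on the processing, while the median log2 fold change of the members stayed below 0 under every setting run. In LIP against EV, 2 members passed, compared with 4 by DESeq2, by edgeR's exact test, by both together and with the replicate block (Gpnmb, Fuca2, Ctsk and Ctsb each time), 1 by the non-legacy form, with filterByExpr or at a threshold of 0.01, and 0 with at least 10 counts in every library. The replicate numbers did not pair LIP and EV, so counts with the block carry that limit in this comparison and are provisional in the others. Leaving out single libraries gave 1 to 4, with 1 without EV 2 or LIP 2 and 4 without LIP 1 or LIP 3. Over all genes these fits gave 20 lower and 2 higher without EV 2, and 26 and 4 without LIP 2. Without LIP 1 they gave 246 and 36, and without LIP 3 they gave 230 and 137. Over all genes 60 were lower and 12 higher in the main test. The numbers were 248 and 73 by DESeq2, 242 and 59 by the exact test and 204 and 53 by both. They were 402 and 65 with the replicate block, 16 and 3 by the non-legacy form and 11 and 2 at 0.01. With filterByExpr they were 3 and 1. With at least 10 counts they were 0 and 0, where 44 members and 11505 genes were tested. In LAP against EV, 0 members passed, or 1 with the replicate block, Gpnmb, and 0 with any library left out. Over all genes 6 were lower and 5 higher, against 30 and 24 with the replicate block. In LIP against LAP, 3 passed, compared with 10 with the replicate block, 1 by the non-legacy form or at 0.01, and 0 with filterByExpr or at least 10 counts, and single libraries left out gave 0 to 4. Over all genes 152 were lower and 38 higher, against 871 and 312 with the replicate block and 1 and 1 with filterByExpr. The numbers were 8 and 2 by the non-legacy form, 30 and 6 at 0.01 and 0 and 0 with at least 10 counts. Without LAP 2, where 0 members passed, they were 6 and 1. Where 4 members passed they were 344 and 64 without LAP 3 and 310 and 138 without LIP 3. The cause of these differences was not tested. The median moved within −0.49 to −0.17 in LIP against EV, −0.17 to −0.02 in LAP against EV and −0.37 to −0.15 in LIP against LAP when 1 library was left out, and no scaling moved the median of all genes by over 0.1. Where a library left out leaves 2 in a group, the spread is pooled over both groups.

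Members near 0 changed sign with a library left out, and none of the values listed here passed the threshold. In LIP against EV this held for Ctsh (−0.13 to 0.24), Manba (−0.50 to 0.046), Sgsh (−0.17 to 0.37), Atp6v0d1 (−0.25 to 0.12) and Tfeb (−0.22 to 0.34). In LAP against EV it held for Cln3 (−0.54 to 0.33), Ctsa (−0.51 to 0.078), Ctsb (−0.13 to 0.21), Ctsd (−0.13 to 0.11), Ctsk (−0.063 to 0.75), Tpp1 (−0.22 to 0.031), Lgmn (−0.25 to 0.053), Idua (−0.25 to 0.025), Galns (−0.30 to 0.095), Sgsh (−0.35 to 0.23), Npc2 (−0.079 to 0.23), Asah1 (−0.033 to 0.33), Smpd1 (−0.16 to 0.059), Atp6v1h (−0.043 to 0.054) and Tfe3 (−0.26 to 0.12). In LIP against LAP it held for Sgsh (−0.065 to 0.45), Atp6v0d1 (−0.15 to 0.23) and Tfe3 (−0.37 to 0.067). With total counts as the only scaling, Ctsd and Atp6v1h turned to −0.00334 and −0.0191 in LAP against EV. Mitf, Atp6v0d2, Cln3 and Tfeb had fewer than 50 counts in every library, which limits the precision of their values, and the cause of the low counts was not tested. Fold changes of Mitf and Atp6v0d2, with 0 to 5 counts, were not followed through the alternatives.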

Other observations

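Members with several annotated transcripts had a lower median count than the other members, with exceptions. The 28 members with 1 curated RefSeq transcript (NM entry) had a median of 1451 counts per library, and the 20 with more than 1 had 195, whereas over all genes the order was opposite, with 21.6 for 11208 genes and 69.1 for 7023. Psap, with 6 such transcripts, had 30 to 104 counts per library, Lipa with 2 had 21 to 51 and Gaa with 2 had 58 to 170. Of the 20, 8 had means of 1123 to 24770, namely Lamp1, Sqstm1, Lamp2, Gusb, Atp6v1h, Lgmn, Cd63 and Ctsh. The cause was not tested.

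The spread between LIP libraries was wider for the members than for other genes. Their median coefficient of variation was 28.7% in LIP beside 19.9% over all genes, while it was 10.1% beside 10.2% in EV and 18.2% beside 17.8% in LAP. EV 3 was the lowest EV library for 29 of 44 members (65.9%), beside 38.6% of all genes.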
